A study of Mus musculus with 5 samples.

Results

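The matrix metalloproteinases Mmp2, Mmp3, Mmp9, Mmp12, Mmp13 and Mmp14 and the tissue inhibitors of metalloproteinases Timp1, Timp2 and Timp3 were taken by name from a single-cell table of mouse aorta, 9 of the 16498 genes it holds. All 9 had unique molecular identifiers (UMIs, 1 for each captured RNA molecule), and 8 of them passed a filter on low values in at least 1 comparison, while Mmp9 passed in none. Live single cells had been sorted from the aortic arch of mice with atherosclerosis and sequenced by a droplet method that reads the 3′ end of each RNA. The 5 libraries were made from pooled mice, with n = 6 given in the design text, after 28 weeks on normal chow. By the labels, 2 libraries came from Oasl1+/+Apoe-/- mice, called Apoe-/- below, and 3 from Oasl1-/-Apoe-/- mice. Both groups lacked Apoe, whose product clears lipoprotein remnants from the blood, so both were prone to plaque. The lines had been backcrossed to C57BL/6, and the Oasl1 deletion was in all cells of the body and removed the promoter and exon 2 of that gene. Reads of Oasl1 itself came to 27 and 16 UMIs in Apoe-/-, against 299, 257 and 315 in the 3 libraries with the deletion by label. Since 3′ reads can lie outside the deleted part, these counts do not test the labels, and the groups are named by label throughout.

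The libraries held 3212 to 4338 cells each, with medians of 4495 to 5186.5 UMIs per cell, and 165 of 18094 distinct cell barcodes occurred in more than 1 library. Clusters were named from marker lists, without using any of the protease genes to form them, and each name means that the cells were like that type by its markers. Names rebuilt in this way may differ from those the study gave. A pair of stromal groups is given by number. Stromal cluster 7 (700 cells) had smooth muscle markers but was led by Itih4, Sfrp2 and Mt2, with Mmp3 and Lcn2 also among its top genes, and the largest sub-cluster of stromal cluster 8 (515 cells) was led by Slurp1, Prg4 and Anxa8 and met the marker rule for stromal cells of lesions. By share of cells (mean ± SD over libraries), Apoe-/- held 65.1% ± 1.81 smooth muscle cells, 7.23% ± 0.181 macrophages and 0.914% ± 0.0441 cells of stromal cluster 8. The other group held 42.6% ± 0.371, 17.8% ± 1.02 and 4.45% ± 0.136.

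Matrix metalloproteinases are zinc enzymes that cut collagen, elastin, proteoglycans and other proteins outside the cell. Most are made as inactive precursors, and TIMP proteins block the active enzymes by binding in the catalytic cleft. In the artery wall they are known for remodelling of the matrix during plaque growth and for thinning of the fibrous cap. Mmp2 and Mmp9 are gelatinases, Mmp12 is the macrophage metalloelastase, Mmp13 is a collagenase and Mmp3, stromelysin-1, cuts many matrix proteins and activates other precursors. Mmp14 is anchored in the cell membrane and activates the Mmp2 precursor together with Timp2. Timp1 and Timp2 are secreted freely, while Timp3 binds to the matrix and also blocks ADAM and ADAMTS proteases.

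Mmp3, Mmp12 and Mmp13 are neighbours in a run of 10 Mmp genes on chromosome 9 (GRCm38, positions 7272514 to 7699585), at 7445822 to 7455975, 7344381 to 7369499 and 7272514 to 7283331, all on the plus strand. Their promoters are shown because these 3 genes lie close together while most Mmp12 UMIs lay in macrophages, the largest part of the Mmp3 UMIs in stromal cluster 8, and those of Mmp13 in both. The sequences are from RefSeq (GRCm38.p6, plus strand), run from 250 bases before to 50 bases after a listed start, and carry in capitals the motif TGANTCA, which Fos and Jun proteins (AP-1) are known to bind. It begins 46 and 35 bases before the listed starts of Mmp3 and Mmp13, and 44 bases before 1 of 2 listed starts of Mmp12. That Mmp12 start lies inside the gene as placed above, and only windows that held the motif are shown. The windows lie at chr9:7445572-7445871, chr9:7347124-7347423 and chr9:7272264-7272563.
Mmp3: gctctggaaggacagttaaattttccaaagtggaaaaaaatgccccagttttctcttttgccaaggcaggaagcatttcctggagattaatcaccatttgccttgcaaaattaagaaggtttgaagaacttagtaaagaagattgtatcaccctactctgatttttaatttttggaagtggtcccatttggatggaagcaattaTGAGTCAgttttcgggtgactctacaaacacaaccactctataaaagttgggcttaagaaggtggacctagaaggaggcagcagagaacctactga
Mmp12: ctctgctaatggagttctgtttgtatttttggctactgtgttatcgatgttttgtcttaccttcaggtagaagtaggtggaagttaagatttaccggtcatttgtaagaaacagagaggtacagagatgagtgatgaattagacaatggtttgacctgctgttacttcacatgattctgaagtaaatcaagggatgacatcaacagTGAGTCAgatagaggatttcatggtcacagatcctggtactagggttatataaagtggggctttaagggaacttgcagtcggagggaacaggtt
Mmp13: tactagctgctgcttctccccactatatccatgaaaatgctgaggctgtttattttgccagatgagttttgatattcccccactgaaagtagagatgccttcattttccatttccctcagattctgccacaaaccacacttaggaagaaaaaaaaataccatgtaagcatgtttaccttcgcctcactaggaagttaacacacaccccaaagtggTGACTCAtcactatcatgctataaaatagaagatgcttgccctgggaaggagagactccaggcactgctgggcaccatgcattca
The motif reads the same on both strands apart from its middle base, and both strands were searched. It was present in 2565 of 32851 RefSeq promoter windows of this length (7.81%), and in 403 windows (1.23%) it began 20 to 60 bases before the start. The window of the other listed Mmp12 start (chr9:7344147-7344446), which holds the first base of the gene as placed above, did not hold these letters. Nor did the windows of Mmp14, Timp1, Timp2 and Timp3. Of the other members, Mmp2 lies on chromosome 8 (92827291 to 92853420), Mmp9 on chromosome 2 (164940780 to 164955850), Mmp14 on chromosome 14 (54431612 to 54445364), Timp1 on chromosome X (20870166 to 20874735), Timp2 on chromosome 11 (118301069 to 118355740) and Timp3 on chromosome 10 (86300372 to 86349506). Timp1 lies inside Syn1 and Timp3 inside Syn3, both on the opposite strand, and Mmp12 overlaps at its 3′ end Mmp1b on the opposite strand. Whether the counting used the strand is not given in the sources used here. Timp2 overlaps Cep295nl on the same strand, which counting by strand would not separate.

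The 9 genes were found in different cells of the aorta. Levels below are mean UMIs per 10000 UMIs of a cell (CP10K) over the cells of a type in a library, and they are compared between cell types within a gene, never between genes. Mmp12 was found in macrophages and in a few cells of the monocyte cluster, and Mmp9 in neutrophils. Mmp2, Mmp3, Timp1 and Timp3 were found in stromal cells and, except for Mmp3, in endothelial cells, while Mmp13, Mmp14 and Timp2 were found on both sides. Differences between types are given as a description, with the spread over the 5 libraries, for the tested types first and then for small or unnamed clusters that stood among them.

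**Figure D1:**
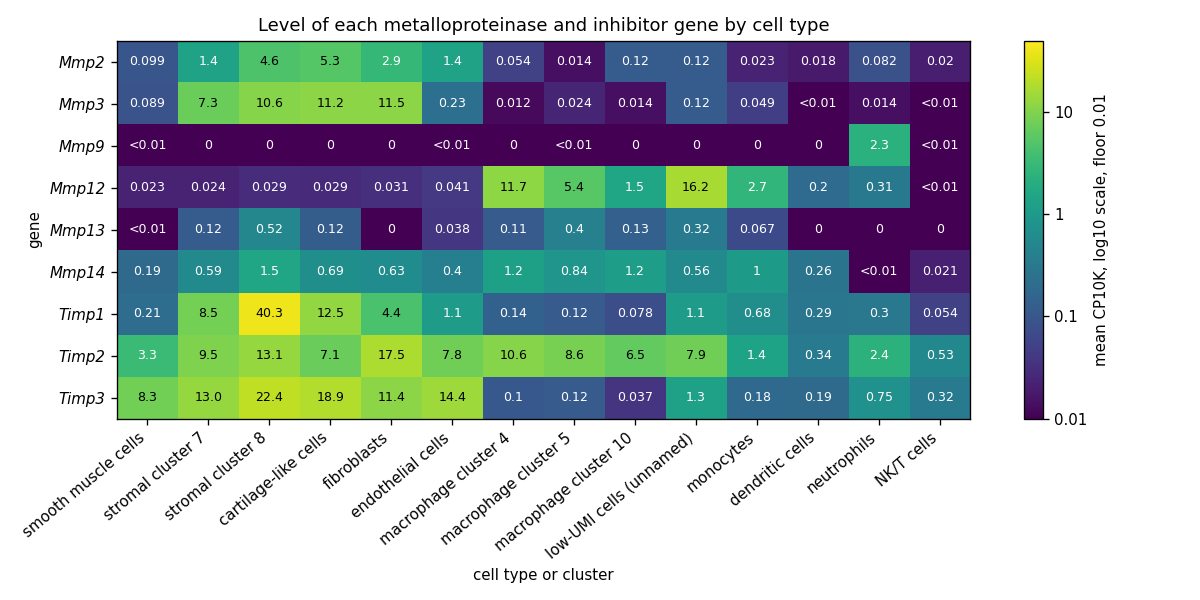
Mean level of the 9 genes over the 5 libraries in CP10K, by cell type, with a brighter colour for a higher level on a log scale. Timp1 stands highest in stromal cluster 8 (40.3 CP10K) and Mmp12 in an unnamed cluster of low-UMI cells (16.2 CP10K) and in macrophage cluster 4 (11.7 CP10K).

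Mmp12 averaged 7.23 CP10K ± 1.78 (SD, n = 5) in macrophages and 2.74 ± 1.68 in the monocyte cluster, against 0.0227 ± 0.0097 in smooth muscle cells. In cells called monocytes one by one from their own markers it was at or below 0.168 CP10K in every library. The highest level, 16.2 ± 3.35 CP10K, was in an unnamed cluster of 658 cells that carried macrophage markers but few UMIs. Of all Mmp12 UMIs, 77.5% lay in macrophages, 10.2% in that cluster and 7.25% in the monocyte cluster. In smooth muscle cells, taken as background for Mmp12, 0.621% and 1.46% of cells in the 2 groups had an Mmp12 UMI (median depth 4777 and 5027 UMIs), against 52.5% and 40.7% of macrophages (6372 and 5772 UMIs). With each cell thinned to 1000 UMIs these shares were 0.128% and 0.288%, against 32.4% and 22.4%.

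Among the tested types Mmp14 was highest in stromal cluster 8 (1.54 ± 0.20 CP10K), macrophages (1.06 ± 0.286) and monocytes (1.03 ± 0.275), whose ranges over the libraries overlapped. Cycling cells (1.14 ± 0.348) and an unnamed sub-cluster led by Hhip and the pericyte marker Kcnj8 (1.11 ± 0.526) had like levels. Mmp13 was sparse everywhere: stromal cluster 8 had 0.52 ± 0.416 CP10K and macrophages 0.230 ± 0.0838, and in Apoe-/- replicate 1 a single cell held all 11 of the cluster's Mmp13 UMIs. Fibroblasts were listed at 0 for Mmp13 in all 5 libraries.

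Mmp3 had like levels in fibroblasts (11.5 ± 3.61 CP10K), stromal cluster 8 (10.6 ± 4.48) and stromal cluster 7 (7.33 ± 1.998), whose order lies within the spread over libraries, as does the level in cartilage-like cells (11.2 ± 8.24). A minority of these cells carried it. An Mmp3 UMI was found in 38.9% of fibroblasts, 25.6% of the cells of stromal cluster 8 and 16.7% of those of stromal cluster 7. This compares with 0.277% of NK/T cells, a type used as background. In stromal cluster 8 the 5 richest cells of a library held 59.7% to 91.1% of its Mmp3 UMIs. Mmp2 was broader, at 4.57 ± 0.325 CP10K in stromal cluster 8, 2.92 ± 0.430 in fibroblasts, 1.37 ± 0.288 in stromal cluster 7 and 1.35 ± 0.250 in endothelial cells. The last pair could not be told apart, and cartilage-like cells (5.29 ± 1.502) and the Hhip sub-cluster (5.33 ± 2.17) lay near stromal cluster 8.

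Timp1 was concentrated in stromal cluster 8 (40.3 ± 5.36 CP10K, with a UMI in 98.1% of cells). Cartilage-like cells had 12.49 ± 2.495, stromal cluster 7 8.46 ± 1.33, cycling cells 6.45 ± 4.31, fibroblasts 4.40 ± 1.42 and endothelial cells 1.11 ± 0.763, and cycling cells could not be told apart from stromal cluster 7 or fibroblasts. Timp3 was spread over the vessel wall, with 22.4 ± 5.97 CP10K in stromal cluster 8, 14.4 ± 2.23 in endothelial cells, 13.0 ± 2.08 in stromal cluster 7, 11.4 ± 3.87 in fibroblasts and 8.28 ± 0.477 in smooth muscle cells, and it was near absent from macrophages (0.103 CP10K). The Hhip sub-cluster had 33.9 ± 13.2 and cartilage-like cells 18.9 ± 5.86. Timp2 was the inhibitor of both compartments, at 17.5 ± 2.42 CP10K in fibroblasts, 13.1 ± 0.469 in stromal cluster 8, 9.52 ± 0.307 in stromal cluster 7, 8.98 ± 0.614 in macrophages, and lower in endothelial cells (7.78) and smooth muscle cells (3.33). Mesothelial cells, 34 in all, had 22.5 ± 6.40 CP10K of Timp2. Only 1.19 to 1.76 CP10K of it, as group means, was found in monocytes. NK/T cells, as background, had 0.0543 CP10K of Timp1, 0.319 of Timp3 and 0.526 of Timp2.

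Over all cells of a library, most of the 9 genes were higher in the libraries labelled Oasl1-/-Apoe-/-. Timp1 had 0.942 and 0.829 CP10K in the Apoe-/- libraries and 2.78, 3.58 and 3.07 in those labelled Oasl1-/-Apoe-/-. Mmp3 had 0.742 and 0.446 against 1.37, 1.23 and 1.24, and Mmp12 1.27 and 1.01 against 2.03, 1.87 and 2.14. All 3 genes were higher in every library of the labelled group, with no overlap. In either direction, the groups did not overlap for 62.3% of all genes tested in the whole aorta. In limma's test with Benjamini-Hochberg adjustment over all genes, used for every adjusted p here, Timp1 rose by 1.77 on the log2 scale (SE 0.09, adjusted p = 2.7e-07), Mmp3 by 1.08 (SE 0.15, adjusted p = 2.3e-04) and Mmp12 by 0.80 (SE 0.09, adjusted p = 4.6e-05). These p-values measure only the spread between the pooled libraries, part of which may be technical, and the log2 scale is that of mean CP10K plus 0.05, which understates the changes of low genes.

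Mmp2, the gelatinase of stromal cells, rose from 0.312 and 0.297 CP10K to 0.605, 0.651 and 0.616 (log2 difference 0.93, SE 0.06, adjusted p = 1.0e-06). Timp2 rose less, by 0.30 (SE 0.05, adjusted p = 7.1e-04), and Mmp13 by 0.54 (SE 0.15, adjusted p = 0.016), a call that was lost without Apoe-/- replicate 2 (adjusted p = 0.15). Timp3 was the one that fell: it had 7.70 and 8.87 CP10K against 6.40, 6.70 and 6.33, again with no overlap, and a log2 difference of -0.35 (SE 0.06, adjusted p = 9.4e-04). Mmp14 had 0.335 and 0.430 against 0.423, 0.476 and 0.476 and did not pass (adjusted p = 0.062). In all, 7 of the 8 members tested passed, 6 higher and 1 lower, where 41.1% of all genes tested did.

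**Figure D2:**
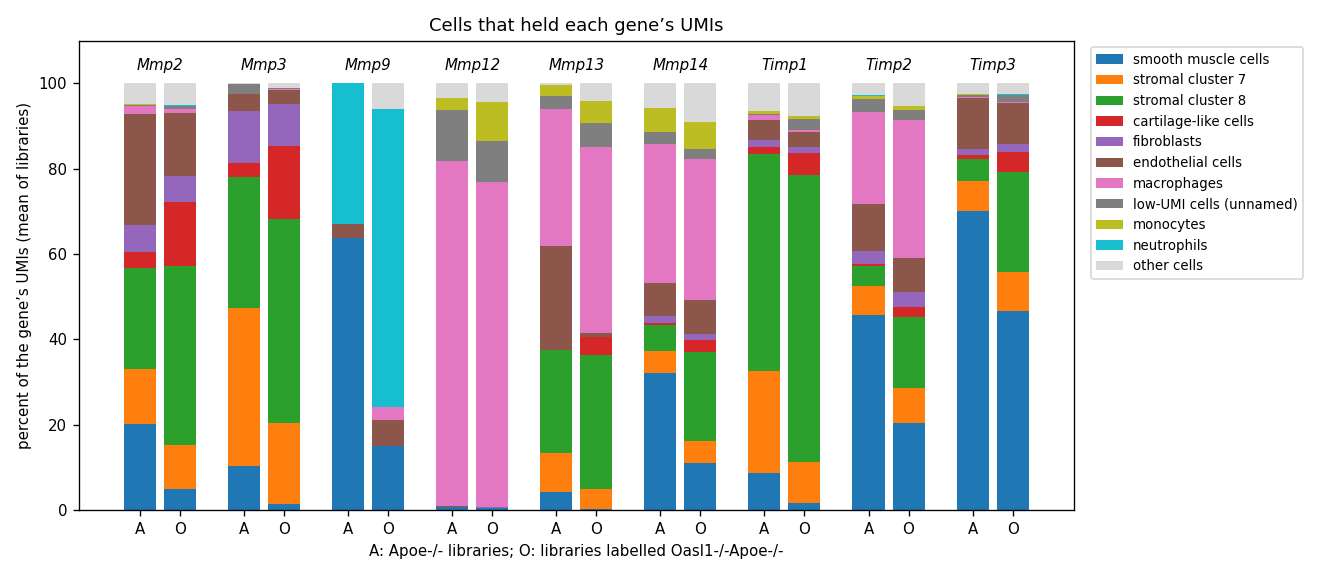
Share of each gene's UMIs by cell type, in percent, averaged over the 2 Apoe-/- libraries and the 3 labelled Oasl1-/-Apoe-/-. Stromal cluster 8 holds 50.8% and 67.1% of Timp1, and smooth muscle cells 70.1% and 46.7% of Timp3.

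The cell types that supplied these RNAs also changed their share of the libraries. Stromal cluster 8 held 50.8% ± 6.08 (SD, n = 2) of the Timp1 UMIs of the Apoe-/- libraries and 67.1% ± 4.34 (n = 3) of the others. It held 5.16% ± 0.635 and 23.4% ± 0.763 of the Timp3 UMIs, while the smooth muscle part of Timp3 was 70.1% ± 2.40 and 46.7% ± 0.608. For Mmp12, macrophages supplied 80.7% ± 3.16 and 76.1% ± 1.01, and monocytes 2.64% ± 0.0783 and 8.96% ± 0.956. Each type was then given the same weight in each library, with the unnamed clusters and mesothelial cells left out. Timp1 differed by only 0.23 (adjusted p = 0.11), and Mmp12, Mmp3, Mmp13 and Timp2 changed sign, to -0.29, -0.11, -0.20 and -0.02, while Mmp2 and Timp3 still passed. The low-UMI cluster left out had Mmp12 at 14.0 and 17.7 CP10K as means of the 2 groups. Small types were kept, such as cartilage-like cells with 11 and 7 cells in the Apoe-/- libraries. In whole libraries, more cells of a type and more RNA per cell cannot be told apart, so each type is given by itself below.

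In macrophages, Mmp12 and Mmp14 were lower in the libraries labelled Oasl1-/-Apoe-/-, and the inhibitors did not pass the test. Mmp12 had 10.2 and 7.35 CP10K in the 300 and 308 macrophages of the Apoe-/- libraries and 6.72, 5.77 and 6.09 in the 586, 555 and 614 of the others. Mmp14 had 1.22 and 1.47 against 0.895, 0.938 and 0.753. For both, each library labelled Oasl1-/-Apoe-/- was below both Apoe-/- libraries, where 43.9% of all genes tested did not overlap in either direction. Mmp12 fell by 0.48 on the log2 scale (SE 0.11, adjusted p = 0.0049) and Mmp14 by 0.61 (SE 0.11, adjusted p = 0.0011). These were 2 of 6 members tested, with 17.0% of all genes past the threshold in macrophages. Their median log2 difference was -0.36, against -0.01 over all genes tested.

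Timp2, the inhibitor that macrophages carried, had 9.96 and 8.45 CP10K against 8.85, 9.16 and 8.50, with overlap and a log2 difference of -0.05 (SE 0.07, adjusted p = 0.67). Mmp13 had 0.372 and 0.163 against 0.190, 0.189 and 0.236 and did not pass (adjusted p = 0.54). Timp1 and Timp3 were at or below 0.220 CP10K in macrophages of every library and did not pass either, although in cells called macrophages one by one Timp1 passed, with 0.0857 and 0.122 CP10K against 0.158, 0.234 and 0.174, and it also passed at a finer clustering. The call one by one took 3178 cells, against 2363 in the clusters, with 2343 in both. Markers of other cells moved with the groups in the macrophages. Summed monocyte markers ranged from 0.497 to 0.664 CP10K in the Apoe-/- libraries and from 2.06 to 2.43 in the others, dendritic cell markers from 0.0872 to 0.0876 and from 0.195 to 0.295, and smooth muscle markers from 3.10 to 4.61 and from 1.61 to 2.72. Their part in the results was not tested.

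**Figure D3:**
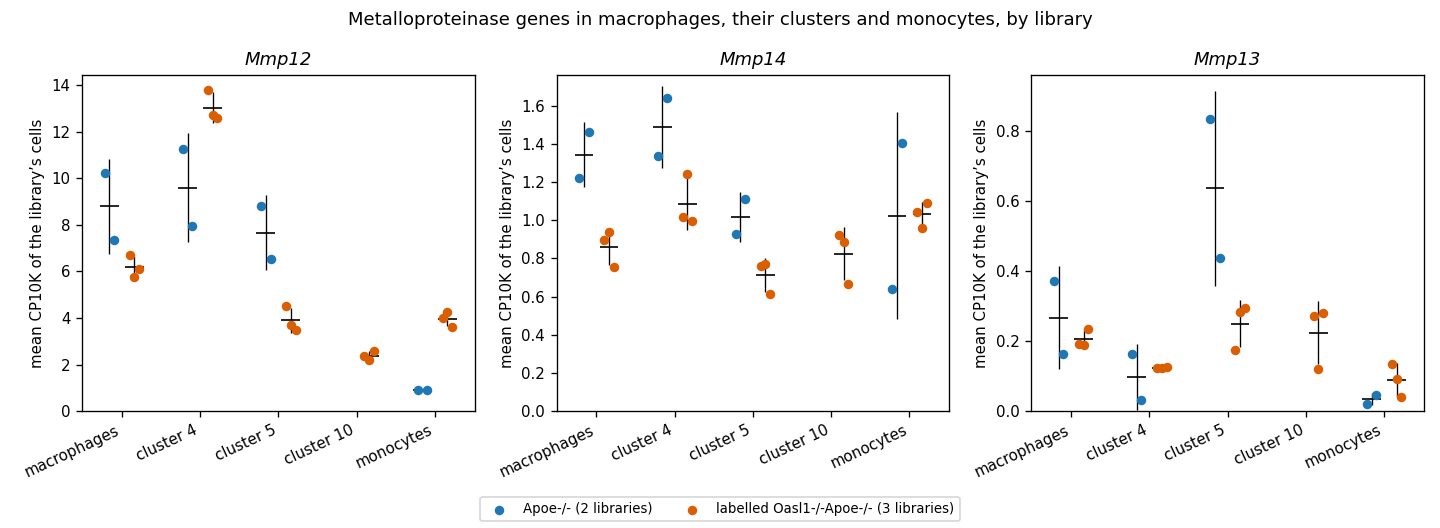
Levels of Mmp12, Mmp14 and Mmp13 in CP10K in macrophages, their clusters and monocytes, with 1 point for each library of at least 20 cells and bars for the group mean ± SD. Mmp12 is lower in macrophage cluster 5 and higher in macrophage cluster 4 and in the monocyte cluster of the libraries labelled Oasl1-/-Apoe-/-.

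The macrophages were of 3 clusters, and these differed in both Mmp12 and group. Cluster 4, led by Gpnmb, Lpl, Fabp5 and Trem2, genes known from lipid-loaded plaque macrophages, had 11.7 ± 2.27 CP10K of Mmp12 over the 5 libraries and held 66.0% of the macrophages of the Apoe-/- libraries but 30.6% of the others. Cluster 5, led by Fcrls, Cd72, Adgre1 and Ms4a7, had 5.40 ± 2.25 CP10K and held 32.1% and 37.3%. Cluster 10, led by the chemokine genes Ccl12, Ccl8 and Cxcl9, held 1.97% and 32.1%, and in the libraries labelled Oasl1-/-Apoe-/- its Mmp12 was 2.35, 2.19 and 2.60 CP10K. Its 7 and 5 cells in the Apoe-/- libraries allowed no comparison.

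Within the clusters Mmp12 moved both ways. In cluster 4 it had 11.3 and 7.93 CP10K against 13.8, 12.7 and 12.6, higher in every library labelled Oasl1-/-Apoe-/- (log2 difference 0.46, SE 0.10, adjusted p = 0.012, with 4.30% of all genes called there). This difference was 0.71 without Apoe-/- replicate 1, and the call was lost without Apoe-/- replicate 2 (0.21, adjusted p = 0.25) or replicate 2 labelled Oasl1-/-Apoe-/- (adjusted p = 0.068). In cluster 5 it had 8.79 and 6.53 against 4.51, 3.70 and 3.47, lower in each of them (log2 difference -0.96, SE 0.14, adjusted p = 0.0011, with 1.23% of all genes called). Of all genes tested, 32.1% in cluster 4 and 29.8% in cluster 5 did not overlap between the groups. Given equal cluster weights, Mmp12 over all macrophages differed by 0.14 (adjusted p = 0.59) and Mmp14 by -0.59 (adjusted p = 0.060). These weights also draw on the 7 and 5 Apoe-/- cells of cluster 10, with Mmp12 at 0.325 and 0 CP10K, too few for a comparison. On summed UMIs with limma's voom Mmp12 differed by -0.03 (adjusted p = 0.91). Without Apoe-/- replicate 1 the Mmp12 difference over all macrophages was -0.25 (adjusted p = 0.024).

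Mmp14, the membrane enzyme, passed in neither cluster. It had 1.34 and 1.64 CP10K against 1.02, 1.24 and 0.999 in cluster 4 (adjusted p = 0.060) and 0.926 and 1.11 against 0.759, 0.772 and 0.612 in cluster 5 (adjusted p = 0.24). Collagenase Mmp13 had its highest macrophage level in cluster 5, 0.834 and 0.439 CP10K against 0.174, 0.282 and 0.295 (log2 difference -1.16, SE 0.28, adjusted p = 0.062). Those values rest on 33 and 16 UMIs against 15, 29 and 24. Timp2 in cluster 4 had 10.4 and 8.92 against 10.7, 12.1 and 10.8 CP10K (adjusted p = 0.16).

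In the monocyte cluster, led by Chil3, Arg1, F10, Plac8 and Ly6c2, Mmp12 and Timp1 were higher. Mmp12 had 0.922 and 0.910 CP10K in the Apoe-/- libraries and 3.997, 4.26 and 3.62 in those labelled Oasl1-/-Apoe-/-, and Timp1 0.365 and 0.251 against 1.27, 1.12 and 0.390. The groups did not overlap for either gene, although the last Timp1 value was close to the first. The same held for 29.6% of all genes tested in this cluster. Mmp12 rose by 2.05 (SE 0.17, adjusted p = 3.5e-08) and Timp1 by 1.31 (SE 0.36, adjusted p = 0.042), 2 of 6 members tested, where 3.44% of all genes were called. Timp2 and Timp3 were lower without overlap but did not pass. As group means, Timp2 had 1.755 and 1.192 CP10K (log2 difference -0.53) and Timp3 0.2955 and 0.1048 (-1.33).

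Few monocytes carried the Mmp12 reads. A UMI was found in 7 of 107 and 15 of 99 cells against 24 of 108, 23 of 99 and 20 of 96, and in each library 5 cells held 74.5% to 94.9% of them. In the 210 cells that were also called monocytes one by one, by their own marker levels, Mmp12 had 0.0882 and 0 CP10K against 0.0402, 0.171 and 0.225 and Timp1 differed by -0.05, so neither passed (adjusted p = 0.69 and 0.98). When genes were centred within each library before clustering, monocytes had Mmp12 at 0.576 and 0.353 against 0.434, 0.995 and 0.194 (log2 difference -0.01). The summed macrophage markers of the cluster ranged from 27.9 to 36.1 CP10K in the Apoe-/- libraries and from 28.2 to 36.4 in the others, monocyte markers from 36.5 to 41.3 and from 61.9 to 69.6, smooth muscle markers from 18.0 to 21.7 and from 1.88 to 12.4, and red cell markers from 38.3 to 104.2 and from 0.529 to 15.4. Their part in the result was not tested. Leaving out any 1 library kept Mmp12 past the threshold, whereas Timp1 was lost without any library except replicate 3 labelled Oasl1-/-Apoe-/- (adjusted p = 0.22 to 0.47).

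Among stromal cells, Timp3 fell in both numbered clusters and in fibroblasts, and Timp1 rose in fibroblasts. In stromal cluster 8 Timp3 had 29.6 and 28.1 CP10K against 19.0, 18.4 and 16.9 (log2 difference -0.67, SE 0.08, adjusted p = 0.0063), the one member of 7 tested to pass, with 1.12% of all genes called. In stromal cluster 7 it had 16.03 and 14.3 against 11.7, 11.3 and 11.7 (log2 difference -0.39, SE 0.08, adjusted p = 0.0047), again 1 of 7, with 1.32% of all genes called. The groups did not overlap in either, as was so for 32.5% of all genes tested in stromal cluster 8 and 26.5% in stromal cluster 7.

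**Figure D4:**
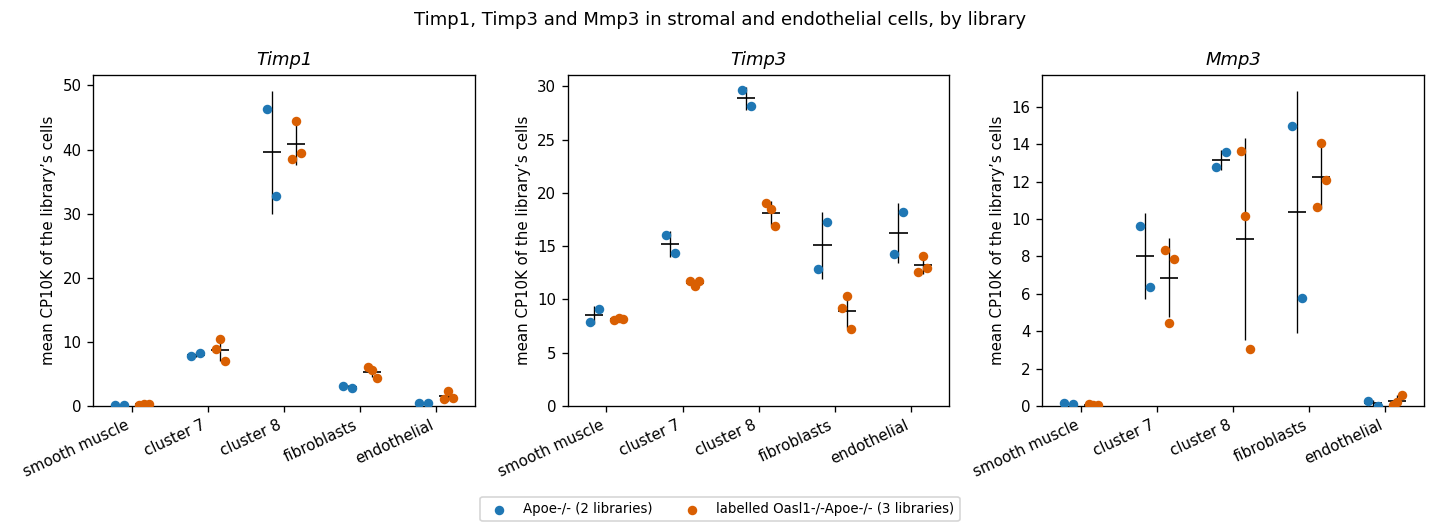
Levels of Timp1, Timp3 and Mmp3 in CP10K in smooth muscle cells, stromal clusters 7 and 8, fibroblasts and endothelial cells, with 1 point per library and bars for the group mean ± SD on a linear axis. Timp3 is lower in both stromal clusters and in fibroblasts of the libraries labelled Oasl1-/-Apoe-/-, and overlaps between the groups in smooth muscle cells.

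The make-up of these clusters moved as well. Stromal cluster 8 held 36 and 41 cells against 149, 148 and 141, and in its largest sub-cluster alone (led by Slurp1 and Prg4) Timp3 had 38.8 and 32.0 CP10K against 31.1, 29.7 and 25.9, which did not pass (log2 difference -0.29, adjusted p = 0.47). On summed UMIs with voom the cluster's Timp3 differed by -0.34 (adjusted p = 0.11). Its smooth muscle markers summed to 46.0 to 51.6 CP10K in the Apoe-/- libraries and 65.2 to 69.6 in the others, and in stromal cluster 7 they summed to 271 to 282.7 and 241.4 to 247.4. In stromal cluster 7 the Timp3 call was lost without Apoe-/- replicate 1 (adjusted p = 0.12), and in stromal cluster 8 without replicate 2 or 3 labelled Oasl1-/-Apoe-/- (adjusted p = 0.067 and 0.071). The part of these shifts in the result was not tested.

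Timp1, whose level was highest in stromal cluster 8, did not pass the test within these clusters. It had 46.4 and 32.7 CP10K against 38.6, 44.4 and 39.4 in stromal cluster 8 (log2 difference 0.06, SE 0.14, adjusted p = 0.87) and 7.74 and 8.24 against 8.81, 10.5 and 6.99 in stromal cluster 7 (adjusted p = 0.79), with overlap in both. Stromelysin Mmp3 had 12.8 and 13.6 against 13.6, 10.2 and 3.04 in stromal cluster 8 and 9.64 and 6.38 against 8.34, 4.42 and 7.86 in stromal cluster 7, without passing (adjusted p = 0.49 and 0.67). Replicate 3 labelled Oasl1-/-Apoe-/- was the low value of Mmp3 in stromal cluster 8. Gelatinase Mmp2, at 4.85 and 4.61 against 4.71, 4.68 and 4.01, and Timp2, at 12.4 and 13.2 against 13.4, 13.6 and 13.1, overlapped between the groups in stromal cluster 8.

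In fibroblasts Timp1 was higher and Timp3 lower. Timp1 had 3.19 and 2.80 CP10K in the 46 and 52 fibroblasts of the Apoe-/- libraries and 6.06, 5.55 and 4.40 in the 64, 91 and 79 of the others (log2 difference 0.81, SE 0.21, adjusted p = 0.017). Timp3 had 12.9 and 17.3 against 9.19, 10.3 and 7.24 (log2 difference -0.75, SE 0.17, adjusted p = 0.0039). Neither gene overlapped between the groups, as was so for 28.4% of all genes tested. These were 2 of 6 members tested, with 2.38% of all genes called. Timp2 and Mmp14 were lower without overlap but did not pass. As group means, Timp2 had 20.1 and 15.8 CP10K (log2 difference -0.35) and Mmp14 0.835 and 0.49 (-0.82). Mmp3 had 14.97 and 5.79 against 10.6, 14.1 and 12.1 and overlapped (adjusted p = 0.46), with Apoe-/- replicates 1 and 2 as its highest and lowest values.

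A sub-cluster led by Cxcl14, Gpx3 and Il33 had no cell in the Apoe-/- libraries and 31, 43 and 35 cells in the others. Without it Timp3 in fibroblasts had 12.9 and 17.3 CP10K against 14.3, 16.8 and 10.6, with overlap (log2 difference -0.13, adjusted p = 0.96), and Timp1 had 3.19 and 2.80 against 4.31, 6.80 and 4.75, still without overlap but not past the threshold (log2 difference 0.79, adjusted p = 0.35). Timp2 without that sub-cluster had 20.66 and 19.54 against 15.03, 20.42 and 19.02, with overlap. The Timp1 call was also lost without any 1 library (adjusted p = 0.061 to 0.29), and the Timp3 call without Apoe-/- replicate 2 or without replicate 1 or 3 labelled Oasl1-/-Apoe-/- (adjusted p = 0.20 to 0.31). Summed smooth muscle markers of the fibroblasts ranged from 35.8 to 40.7 CP10K in the Apoe-/- libraries and from 15.5 to 29.5 in the others, and the genes of the monocyte list from 2.94 to 3.26 and from 11.7 to 15.99, with Ly6c2, Chil3 and F10 of that list at 0. Their part in the result was not tested.

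In endothelial cells Timp1 was higher and Timp3 lower. Timp1 had 0.495 and 0.481 CP10K against 1.04, 2.35 and 1.20 (log2 difference 1.46, SE 0.19, adjusted p = 1.6e-07), and Timp3 had 14.3 and 18.2 against 12.6, 14.1 and 13.0 (log2 difference -0.29, SE 0.08, adjusted p = 0.026). The groups did not overlap, though for Timp3 the nearest values were 14.3 and 14.1. Of all genes tested in endothelial cells, 28.5% did not overlap. The Timp3 difference was -0.46 without Apoe-/- replicate 1 and -0.11 without Apoe-/- replicate 2, and the call was lost without any 1 library except Apoe-/- replicate 1 (adjusted p = 0.074 to 0.74). These were 2 of 6 members tested, with 4.06% of all genes called. Mmp2 had 1.10 and 1.13 CP10K against 1.33, 1.68 and 1.52 and did not pass (adjusted p = 0.095). Mmp3 had a UMI in only 3 to 6 endothelial cells of a library, and in Apoe-/- replicate 1 a single cell held 121 of 126 UMIs.

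Neither call was made within the endothelial clusters taken one by one. Cluster 3, led by Adh7, Ptprb and Klk10, held 317 and 334 cells against 167, 162 and 136, and cluster 15, led by Emcn, Ctla2a and Plvap, held 70 and 53 against 89, 87 and 85. Timp1 was lower in cluster 3 (0.222 and 0.236 against 0.189, 0.663 and 0.306 CP10K) than in cluster 15 (1.73 and 2.02 against 2.62, 5.50 and 2.63). Timp3 ran the other way, with 16.3 and 20.3 against 16.2, 18.1 and 16.9 in cluster 3 and 5.15 and 4.99 against 5.84, 6.64 and 6.59 in cluster 15. Within the clusters Timp1 did not pass (log2 differences 0.49 and 0.83, adjusted p = 0.80 and 0.078), and neither did Timp3 (-0.09 and 0.32, adjusted p = 0.90 and 0.29), whose sign in cluster 15 was opposite to that over all endothelial cells. Markers of lymphatic endothelium summed to 0.187 to 0.254 CP10K in the Apoe-/- libraries and 5.20 to 11.5 in the others, and without the cells that had a UMI of 1 of these markers Timp1 was still higher, by 1.31 (adjusted p = 5.6e-06). Without those cells Timp3 had 14.28 and 18.23 CP10K against 12.32, 14.35 and 12.99, so the groups overlapped. Fibroblast markers in the endothelial cells ranged from 12.1 to 12.9 CP10K in the Apoe-/- libraries and from 17.6 to 25.4 in the others, and macrophage markers from 0.702 to 1.23 and from 2.42 to 2.55. In each library 5 cells held 60.6% to 73.8% of the endothelial Timp1 UMIs. The part of these cells in the result was not tested.

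In smooth muscle cells, the most numerous type, the inhibitors did not pass the test. Timp3 had 7.91 and 9.11 CP10K against 8.03, 8.21 and 8.13 (log2 difference -0.06, SE 0.05, adjusted p = 0.55), and Timp2 had 3.33 and 3.23 against 3.24, 3.52 and 3.33 (adjusted p = 0.77). Timp1 had 0.183 and 0.190 against 0.184, 0.238 and 0.259 (adjusted p = 0.25). All 3 overlapped between the groups. Mmp3 was the one member of 6 tested to pass, where 6.61% of all genes did: it had 0.137 and 0.0966 against 0.0887, 0.0633 and 0.0569 CP10K (log2 difference -0.48, SE 0.12, adjusted p = 0.024). Those are traces next to the stromal clusters, from a UMI in 1.90% of cells, and the call was lost without Apoe-/- replicate 1 (-0.30) or without replicate 2 or 3 labelled Oasl1-/-Apoe-/- (adjusted p = 0.096 to 0.28). When cells were called smooth muscle one by one from their own markers, Mmp3 was higher instead, 0.308 and 0.235 against 0.610, 0.473 and 0.487 (log2 difference 0.84, adjusted p = 3.8e-05). Timp1, Timp2 and Mmp2 also passed in these cells, where Timp1 had 0.512 and 0.365 against 1.07, 1.79 and 1.06, Timp2 3.65 and 3.46 against 3.99, 4.31 and 3.97, and Mmp2 0.142 and 0.147 against 0.299, 0.285 and 0.301. The call one by one took 10713 cells, against 9668 in the clusters, with 9632 in both. It thus added cells from outside the smooth muscle clusters, and their part in these rises was not tested.

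**Figure D5:**
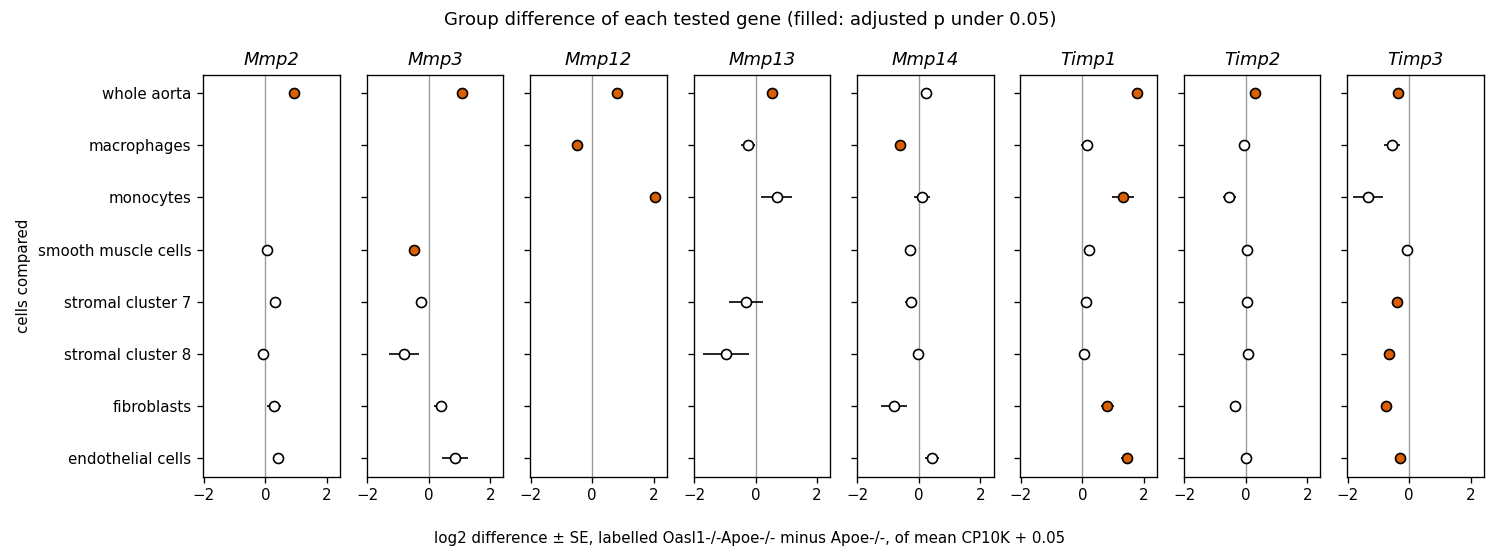
Log2 difference (libraries labelled Oasl1-/-Apoe-/- minus Apoe-/-) ± SE by cell type for the 8 genes that were tested, with filled points for an adjusted p under 0.05. Timp3 passes below 0 in the whole aorta, both stromal clusters, fibroblasts and endothelial cells. Mmp12 lies above 0 in the monocyte cluster (2.05) and below 0 in macrophages (-0.48).

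Mmp9 was rare. It had 56 UMIs in all, 32 of them in the 118 neutrophils, whose levels were 0.348 and 4.18 CP10K in the Apoe-/- libraries and 2.17, 2.58 and 2.22 in the others. Apoe-/- replicate 1 was the low value, from 1 UMI in 25 neutrophils. A UMI was present in 20.3% of neutrophils and in 0.186% of smooth muscle cells. In macrophages 1 UMI was found among 2363 cells, so any difference of Mmp9 between the groups was not detectable at this depth. In dendritic and NK/T cells no member passed (0 of 5 and 0 of 3 tested, where 1.49% and 1.70% of all genes were called, and no member had an unadjusted p under 0.05).

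Whether the group difference itself varied between types was tested within libraries. No member passed for macrophages minus smooth muscle cells (4.25% of all genes called), macrophages minus fibroblasts (0.0429%), smooth muscle cells minus fibroblasts, macrophages minus monocytes or macrophage cluster 4 minus cluster 5 (0% in each of the last 3). By limma's unadjusted p under 0.05 there were 0 of 4, 0 of 4, 1 of 6, 1 of 6 and 2 of 6 members in these 5 pairs. Of the members in these 5 pairs the largest gap was that of Mmp12, with -0.48 in macrophages and 2.05 in monocytes, a difference of -2.53 (SE 0.31, unadjusted p = 1.1e-04, adjusted p = 0.21). The pair of macrophage clusters 4 and 5 was added after the data were seen. In another pair added then, the Timp3 differences of smooth muscle cells (-0.06) and stromal cluster 8 (-0.67) were 0.61 apart (SE 0.16, unadjusted p = 0.0082, adjusted p = 0.25).

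Other genes of matrix breakdown were read from lists of 17 further Mmp genes, 11 other inhibitors and regulators, 17 ADAM and ADAMTS proteases, 10 genes of plasminogen activation and 13 cathepsins and cystatins. In macrophages 2 of the 3 further Mmp genes tested fell, the neutrophil collagenase gene Mmp8 by 0.90 and Mmp27 by 1.01, from 0.124 and 0.158 CP10K on average in the Apoe-/- libraries. Of 12 lysosomal protease and cystatin genes tested there, 6 fell and 2 rose, where 17.0% of all genes were called. Ctsl fell by 1.07 (SE 0.07, adjusted p = 8.4e-08), Ctsk, which codes for a collagen-cutting cathepsin, by 1.20 (adjusted p = 7.5e-04) and Ctsd by 0.74 (adjusted p = 6.0e-08), while Ctsc rose by 0.68 (adjusted p = 1.1e-05). Furin, a convertase that activates the Mmp14 precursor, rose by 0.47 (adjusted p = 0.0025), and Lrp1, a receptor that takes up proteases with their inhibitors, fell by 0.57 (adjusted p = 5.3e-04). Plaur, the urokinase receptor gene, fell by 0.58 (adjusted p = 1.6e-04) and Anxa2 fell by 0.31. No ADAM or ADAMTS gene passed among the 6 tested in macrophages. Within macrophage cluster 4 (4.30% of all genes called), 2 of 12 cathepsin and cystatin genes rose, Ctss and Cst3, and 1 fell, Ctsl. Within cluster 5 (1.23%), 1 of 11 fell, Ctsd. No further Mmp gene and none of the other inhibitors and regulators, Furin and Lrp1 among them, passed in either cluster. Plaur fell in cluster 4. The part of the cluster shares in these differences was not tested.

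In the monocyte cluster Plaur rose by 0.69 and Anxa2, which binds plasminogen, by 0.66, while Serpine2, which codes for an inhibitor of serine proteases, fell by 1.96. Among its cathepsins Ctsc rose by 0.63, and Ctsb and Lgmn fell by 0.40 and 0.63, 3 of 12 tested. Smooth muscle cells had Thbs1 (0.48) and Thbs2 (0.37), whose thrombospondins bind metalloproteinases, and Ctss (0.81) higher. Summed macrophage markers of the smooth muscle cells ranged from 0.2655 to 0.2791 CP10K in the Apoe-/- libraries and from 0.603 to 0.6665 in the others. Monocyte markers ranged from 1.058 to 1.163 and from 1.523 to 1.583. Their part in these differences was not tested. Fibroblasts had Thbs1 (1.63), Lcn2 (1.98), whose lipocalin forms a complex with Mmp9, Adam10 (2.19), Ctsb (0.71) and Lgmn (1.49) higher and Cst3 lower (-0.47), without any change past the threshold among the 6 plasminogen genes tested. Over the whole aorta, where 41.1% of all genes were called and macrophages made up 7.23% and 17.8% of cells, 12 of 13 cathepsins and cystatins were higher.

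The genes with the most similar pattern were found by Pearson's r of the log2 level over 50 values, 5 libraries in each of 10 types, as a description, since values of a library share its cells and depth. Mmp12 was most like Gdf3 (0.92), C1qb (0.91) and Mrc1 (0.91). Mmp9 was most like the neutrophil genes S100a9, Il1f9 and Retnlg (0.96 each), Timp3 like Bgn and Cavin3 (0.97 each) and Fbln5 (0.97), and Timp1 like Lum (0.90), Ltbp2 (0.90) and Prg4 (0.88). Mmp2 went with Bok (0.96), Unc5b (0.94) and Dcn (0.94), Mmp3 with Flrt2 (0.96) and Gpr153 (0.95), Mmp14 with Sh3pxd2b (0.91), Emp3 (0.91) and Tns3 (0.88), and Timp2 with Cd81 (0.91), Rnase4 (0.88) and Ctsl (0.88). For Mmp13, found in both macrophages and stromal cells, no gene came above 0.68 (Gdf15, then Spp1 and Cd276 at 0.66).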

How the data were processed

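The authors aligned the reads to mm10 with Cell Ranger 3.1.0 and, with Seurat 4.0.3, kept cells of more than 200 genes, removed called doublets and deposited natural log values of 1 plus UMIs per 10000 UMIs of a cell. No doublet caller was run here. Whole UMIs were recovered for 100% of values within 0.01, and the libraries held 16959976 to 19813039 UMIs. Cells were clustered with scanpy 1.11.5 and leidenalg 0.10.2 (2000 variable genes without the listed protease genes, 12 components, 20 neighbours, resolution 1). A cluster was named where at least 3 markers of a type were 2-fold higher and 1 was among its top 10 genes, a rule completed after the clusters were seen. Mean CP10K per library and type (at least 20 cells in each library) was tested as log2(mean CP10K + 0.05) with limma 3.58.1, over genes of at least 0.05 CP10K on average, with Benjamini-Hochberg adjustment and a threshold of 0.05. Apart from the members, genes were named if they passed without overlap between the groups, at most 4 per list and type, and the 3 most similar genes of each member. Some genes that met these rules are not reported here. The members, lists and tests were chosen with earlier results of these data known. Alternatives changed the pseudocount, filter, scale, clustering, gating, weights, block and libraries used.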

Additional observations from a re-analysis of the deposited data

Results flagged for a closer look

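The group differences of Mmp12 pointed in opposite directions in cells of 1 lineage, with every library of one group on the same side in each type. Such a lack of overlap was found for 29.6% to 43.9% of all genes tested in these types and clusters. Macrophages minus monocytes gave -2.53 (log2, SE 0.31), macrophage cluster 5 minus monocytes -3.01 (SE 0.31) and macrophage cluster 4 minus cluster 5 1.42 (SE 0.21). None passed limma's test of the difference after Benjamini-Hochberg adjustment over all genes (adjusted p = 0.21, 0.38 and 0.57), and the last pair of comparisons was added after the data were seen. In the 210 cells called monocytes both by cluster and one by one, Mmp12 was at or below 0.225 CP10K in every library. The part of macrophages within the monocyte cluster was not tested.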

How the results depend on the processing

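Of the alternative counts of members called, 122 were within 1.5 times the reported count and 37 were not, and of the alternative values of single genes 246 kept their direction and side of the threshold, 51 kept the direction without passing and 10 changed sign. In macrophages 1 member passed with voom and 0 with equal cluster weights, where Mmp12 was 0.14. Those weights rest in part on the 7 and 5 Apoe-/- cells of macrophage cluster 10. In monocytes 1 passed with a pseudocount of 0.01, without the filter, on the natural log scale, with voom and with genes centred within libraries before clustering (Mmp12 -0.013 there), and 0 in cells gated one by one (Timp1 -0.66) or both clustered and gated (Timp1 -0.053). At resolution 0.5 no monocyte cluster formed. In smooth muscle cells 0 passed without the filter, on the natural log scale, at resolutions 0.5 and 2 and with centred genes, and 4 passed in gated cells (Mmp3 0.84). In fibroblasts 0 passed without the sub-cluster absent from the Apoe-/- libraries. With equal cell type weights, and unnamed and mesothelial cells left out, 2 passed in the whole aorta. Mmp13, Mmp12, Mmp3 and Timp2 became -0.20, -0.29, -0.11 and -0.017. Timp3 in endothelial cluster 15 was 0.32.

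Leaving out 1 library at a time gave 2 to 3 members in macrophages, 1 to 2 in monocytes, 0 to 2 in smooth muscle cells, 0 to 2 in fibroblasts and 7 in the whole aorta. A lone Apoe-/- library was then assumed to vary like the other group. For the difference between types, none of which passed in the reported fits, 1 member passed for macrophages minus smooth muscle cells with a pseudocount of 0.2, on the natural log scale, with centred genes or in gated cells, 2 for macrophages and 2 for smooth muscle cells minus fibroblasts on the natural log scale, and 1 for macrophages minus monocytes with a pseudocount of 0.2 or on the natural log scale. The causes were not tested.

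With the replicate number as a block, 2 members passed in smooth muscle cells, 6 in the whole aorta and 2 in each of macrophages, monocytes and fibroblasts. Deviations of libraries with the same number correlated at -0.04 to 0.04, so the numbers were not taken as pairs.

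Calls over all genes moved more. They were 1344 in macrophages (159 to 1587 over the alternatives), 261 in monocytes (70 to 326), 594 in smooth muscle cells (233 to 837), 223 in fibroblasts (38 to 289) and 4045 in the whole aorta (939 to 4790). For the differences between types they were 290 (30 to 1068) for macrophages minus smooth muscle cells, 3 (0 to 174) for macrophages minus fibroblasts, 0 (0 to 72) for smooth muscle cells minus fibroblasts and 0 (0 to 127) for macrophages minus monocytes. Depth limited Mmp9 and Mmp13 most, with 56 UMIs of Mmp9 in all.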
